A study of Homo sapiens with 4 samples.

Results

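The EGFR family and its ligands were followed as 9 genes in H1975 cells: the receptors EGFR, ERBB2 and ERBB3, the ligands AREG, EREG, HBEGF, TGFA and BTC, and the receptor inhibitor ERRFI1. They were taken by gene symbol from a table of 15562 genes, and all 9 were present. H1975 is a human lung adenocarcinoma line that is known for an activating and a resistance mutation in the EGFR kinase domain, although its genotype is labelled WT. The hypoxia group was cultured for 24 h in a gas mix with 1% O2, and the normoxia group without low oxygen. Both had 5% CO2 and RPMI medium with 10% serum. Each group had 1 RNA-seq library, with 18943320 counts in hypoxia and 17643836 in normoxia, and 1 library of small RNA.

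EGFR is a receptor tyrosine kinase that dimerises when a ligand binds and then signals through RAS and ERK and through PI3K. ERBB2 has no known ligand and acts as a partner of the other receptors, while ERBB3 binds neuregulins and has little kinase activity of its own. The ligands are made as membrane-bound precursors that ADAM proteases release, and ERRFI1 binds the active receptor kinase and blocks it. Signalling from EGFR is the main growth signal in lung adenocarcinomas with EGFR mutations.

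All 9 genes passed a minimum of 1 CPM, the count scaled to library size, in at least 1 library, as did 12725 genes of the table, and 8 of them, all but BTC, had at least 100 counts in each library. With 1 library per group nothing could be tested against the spread between cultures. Each difference is therefore the log2 ratio of hypoxia over normoxia after scaling by the trimmed mean of M values (TMM), with the 95% interval that counting error allows. The reads carry no molecular identifiers, and PCR copies make the true error larger than these intervals.

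Promoter sequences are shown for EGFR and HBEGF, the members with the highest and the lowest ratio, and for EREG and AREG, which neighbour each other on chromosome 4. They are RefSeq windows (GRCh38.p14) of 250 bases before to 50 bases after the gene start, on the strand of the gene, and capitals mark GGGCGG on either strand and TATAAA.
EGFR, chr7:55018767-55019066, plus strand: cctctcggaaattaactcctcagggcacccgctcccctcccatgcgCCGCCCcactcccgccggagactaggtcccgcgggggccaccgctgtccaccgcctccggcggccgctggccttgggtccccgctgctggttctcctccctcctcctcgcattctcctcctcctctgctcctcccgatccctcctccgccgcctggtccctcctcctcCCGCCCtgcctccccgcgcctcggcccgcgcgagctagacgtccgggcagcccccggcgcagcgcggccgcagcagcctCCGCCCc
HBEGF, chr5:140346554-140346853, minus strand: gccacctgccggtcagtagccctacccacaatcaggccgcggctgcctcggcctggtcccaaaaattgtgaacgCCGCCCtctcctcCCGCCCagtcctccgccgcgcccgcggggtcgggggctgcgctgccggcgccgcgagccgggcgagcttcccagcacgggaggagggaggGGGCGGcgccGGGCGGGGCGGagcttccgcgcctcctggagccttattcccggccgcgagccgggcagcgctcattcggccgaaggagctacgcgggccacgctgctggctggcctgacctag
EREG, chr4:74364895-74365194, plus strand: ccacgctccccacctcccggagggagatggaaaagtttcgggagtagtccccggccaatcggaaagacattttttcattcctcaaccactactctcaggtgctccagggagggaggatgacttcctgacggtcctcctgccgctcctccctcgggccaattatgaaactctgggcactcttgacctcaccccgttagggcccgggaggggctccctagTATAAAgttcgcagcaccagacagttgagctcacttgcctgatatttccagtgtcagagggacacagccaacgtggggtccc
AREG, chr4:74444886-74445185, plus strand: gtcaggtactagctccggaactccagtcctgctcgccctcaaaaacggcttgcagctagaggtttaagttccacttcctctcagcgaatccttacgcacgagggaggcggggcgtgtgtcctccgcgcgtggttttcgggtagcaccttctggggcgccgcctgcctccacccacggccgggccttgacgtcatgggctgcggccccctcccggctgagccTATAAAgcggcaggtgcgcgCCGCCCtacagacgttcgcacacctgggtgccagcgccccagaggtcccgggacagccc
The EGFR window shown was 75.3% G and C, held 3 matches to GGGCGG, the core of a GC box, and held no TATAAA. A second EGFR window, chr7:55109589-55109888, is not shown and was made up otherwise. It was 42.0% G and C, held no GGGCGG, and held TATAAA 146 and 36 bases before its start. The HBEGF window was 75.0% G and C with 5 matches to GGGCGG, 2 of which overlapped by 1 base, and no TATAAA. In EREG a TATA box with these letters began 32 bases before the start and in AREG 29 bases before it, and their windows were 57.7% and 66.3% G and C. Of all 35116 windows in the table, 45.0% held GGGCGG and 11.5% held TATAAA, and the median content of G and C was 58.7%. The site that hypoxia-inducible factors (HIF) bind has the core ACGTG, and the form GCGTG is bound as well. On either strand, one form or the other was in 48.4% of all windows. Neither form was in the 2 EGFR windows, the ERRFI1 and ERBB2 windows or the TGFA window at chr2:70553777-70554076. The HBEGF, EREG, AREG and BTC windows and the other TGFA window held a form, which in HBEGF began 25 bases after the start. Whether these sites bear on the ratios was not tested. Over the 10 windows of the 8 members that were in the table, 5 held either form.

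Of the receptors, EGFR was higher in hypoxia and, per length, lay above ERBB2 there and below it in normoxia. EGFR (Entrez 1956, GRCh38.p14 chromosome 7, 55019017 to 55211628) was counted 5335 times in hypoxia and 4057 times in normoxia, equal to 25.9 FPKM in hypoxia and 21.2 FPKM in normoxia, a level that allows for gene length and library total. The log2 ratio of EGFR came to 0.30 (0.24 to 0.36), or 1.23-fold, which lay above those of 96.9% of the 10739 genes with at least 100 counts in each library. It lay above those of 93.4% of all genes that passed the CPM minimum. In bulk RNA, fewer cells of a kind and less RNA per cell cannot be told apart. ERBB2 (chromosome 17, 39688094 to 39728658) was counted 2589 times in hypoxia and 2566 times in normoxia, equal to 22.8 FPKM in hypoxia and 24.2 FPKM in normoxia. Its log2 ratio was -0.08, with an interval (-0.16 to -0.00053) whose upper end lay just below 0, and with the size factors of DESeq2 the interval included 0 (upper end 0.00084). Per length, EGFR stood at 1.14 times ERBB2 in hypoxia (1.09 to 1.19) and at 0.874 times ERBB2 in normoxia (0.831 to 0.918), so the order of the 2 receptors differed between the libraries and each order was outside counting error. By counts without length EGFR led ERBB2 in both libraries, with 65.5% of the receptor counts in hypoxia, against 31.8% for ERBB2, and 59.6% in normoxia, against 37.7% for ERBB2.

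ERBB3 (chromosome 12, 56080108 to 56103505) was the lowest receptor with a value, at 2.10 FPKM in hypoxia and 1.89 FPKM in normoxia, on counts of 226 in hypoxia and 189 in normoxia. Its log2 ratio of 0.17 (-0.12 to 0.45) did not separate it from no difference at this depth. ERBB2 stood at 10.8 times ERBB3 per length in hypoxia and at 12.8 times in normoxia. ERBB4 was not in the table and was not analysed here. Summed over EGFR, ERBB2 and ERBB3, receptor transcripts came to 50.8 FPKM in hypoxia and 47.3 FPKM in normoxia. EGFR made up 51.0% of that sum in hypoxia (49.9 to 52.2) and 44.8% in normoxia (43.6 to 46.0). ERBB2 made up 44.8% in hypoxia and 51.2% in normoxia, and ERBB3 4.14% in hypoxia and 4.00% in normoxia.

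**Figure D1:**
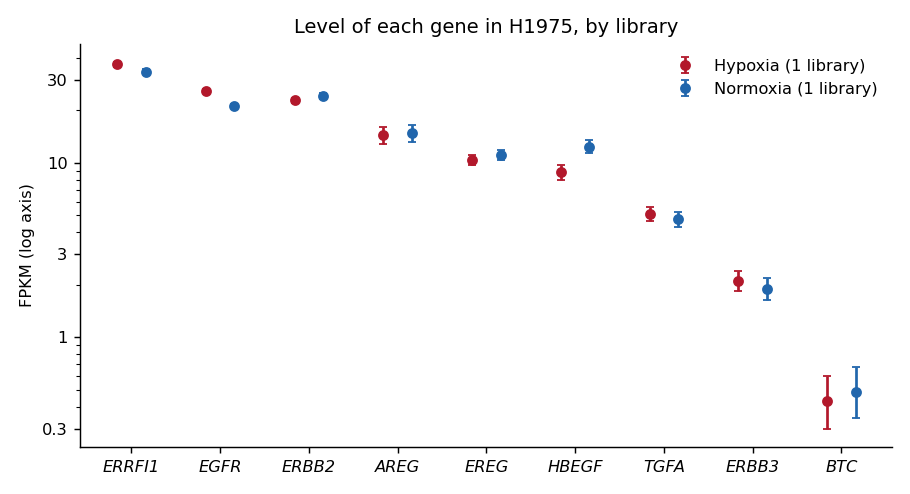
FPKM of each of the 9 genes on a log axis, hypoxia in red to the left of normoxia in blue, 1 library each, with 95% Poisson counting intervals. EGFR lies above ERBB2 in hypoxia and below it in normoxia, and HBEGF is lower in hypoxia. The intervals of ERBB2, AREG, EREG, TGFA, ERBB3 and BTC overlap between the libraries.

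Among the ligands HBEGF was lower in hypoxia, and the other 4 were not separated from no difference. HBEGF (Entrez 1839, chromosome 5, 140332843 to 140346603), the heparin-binding ligand that also serves as the receptor for diphtheria toxin, was counted 395 times in hypoxia and 515 times in normoxia, equal to 8.84 FPKM in hypoxia and 12.4 FPKM in normoxia. The log2 ratio of -0.48 (-0.67 to -0.28) corresponds to 0.719 times the normoxia level. Of the genes with at least 100 counts in each library 0.568% had a lower ratio, and of all genes that passed the CPM minimum 2.95%.

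AREG, EREG and BTC lie together on chromosome 4 with EPGN, another ligand of EGFR, and these 4 are the only protein-coding genes in the 486 kb from the start of EPGN to the end of BTC (74308470 to 74794523). AREG, amphiregulin, was counted 336 times in hypoxia and 322 times in normoxia (14.4 FPKM in hypoxia and 14.8 FPKM in normoxia), for a log2 ratio of -0.03 (-0.26 to 0.19). EREG, epiregulin, was counted 905 times in hypoxia and 903 times in normoxia (10.4 FPKM in hypoxia and 11.1 FPKM in normoxia), for a log2 ratio of -0.09 (-0.22 to 0.05). BTC, betacellulin, was scarce, with counts of 35 in hypoxia and 37 in normoxia, and its log2 ratio of -0.17 had an interval of -0.88 to 0.53. EPGN had a count of 0 in hypoxia, which allows up to 3, and of 4 in normoxia. The cluster thus held a pair of well-expressed genes beside a pair that was barely read, and none of the 4 had an interval that excluded 0.

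TGFA (chromosome 2, 70447284 to 70553826), a ligand that is known as a HIF target in kidney cancer cells, was counted 424 times in hypoxia and 367 times in normoxia, equal to 5.11 FPKM in hypoxia and 4.75 FPKM in normoxia. Its log2 ratio was 0.12 (-0.09 to 0.32). Of the ligands outside the 9 genes, NRG1, a neuregulin that binds ERBB3, had counts of 1004 in hypoxia and 972 in normoxia and differed by a log2 ratio of -0.05 (-0.17 to 0.08). EGF itself was counted 28 times in hypoxia and 19 times in normoxia (0.47, -0.43 to 1.39). NRG4 had 7 counts in each library, NRG3 had 0 in hypoxia and 3 in normoxia, and NRG2 had 0 in hypoxia and 1 in normoxia.

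Summed over the 11 ligand genes in the table, ligand transcripts came to 43.0 FPKM in hypoxia and 47.5 FPKM in normoxia, a log2 ratio of -0.15 (-0.24 to -0.05). HBEGF alone differed by -3.54 FPKM, against -4.55 FPKM for the sum. Per length AREG was the largest part in both libraries, at 33.4% in hypoxia (30.9 to 36.0) and 31.1% in normoxia (28.6 to 33.6). HBEGF made up 20.6% in hypoxia (18.7 to 22.4) and 26.0% in normoxia (24.1 to 28.0). EREG made up 24.1% in hypoxia and 23.3% in normoxia, TGFA 11.9% in hypoxia and 9.99% in normoxia, and NRG1 8.43% in hypoxia and 7.92% in normoxia. The ranking of the ligands turns without length: by counts NRG1 was the largest, at 32.0% in hypoxia and 30.9% in normoxia, and AREG had 10.7% in hypoxia and 10.2% in normoxia, below EREG, HBEGF and TGFA. For the receptor sum the log2 ratio was 0.10 (0.05 to 0.15). The intervals of the 2 sums, which come from the Poisson variance of each count, lay on opposite sides of 0.

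**Figure D2:**
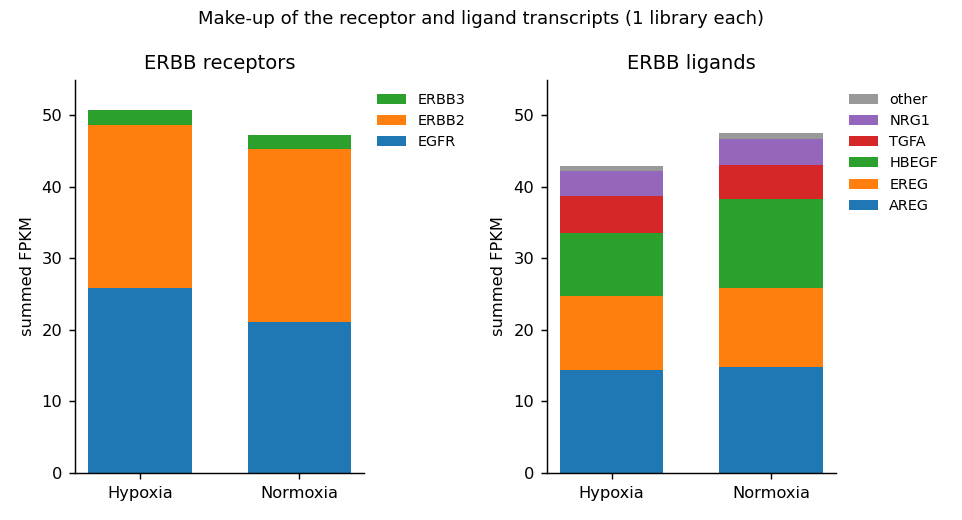
Stacked FPKM of the receptors (left) and of the 11 ligand genes (right) in hypoxia and normoxia, 1 library each, with BTC, EGF, EPGN, NRG2, NRG3 and NRG4 drawn together as other. The receptor column is taller in hypoxia (50.8 against 47.3 FPKM), with the larger difference in its EGFR segment, and the ligand column is shorter (43.0 against 47.5 FPKM), mostly in its HBEGF segment.

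ERRFI1 (Entrez 54206, chromosome 1, 8011727 to 8026309), the feedback inhibitor also called MIG6, had the highest level per length of the 9 genes in both libraries. By counts without length EGFR ranked above it in both, with 5335 in hypoxia and 4057 in normoxia. The FPKM imply a length of 10869 bases for EGFR and 6810 for ERRFI1. The counts of ERRFI1 were 4719 in hypoxia and 3990 in normoxia, equal to 36.6 FPKM in hypoxia and 33.2 FPKM in normoxia. The log2 ratio was 0.15 (0.09 to 0.21), an interval that excludes 0. Set against the receptor it inhibits, ERRFI1 stood at 1.41 times EGFR per length in hypoxia (1.36 to 1.47) and at 1.57 times in normoxia (1.502 to 1.64). Both were higher in hypoxia, EGFR by more.

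By level per length, the order in hypoxia was ERRFI1, EGFR, ERBB2, AREG, EREG, HBEGF, TGFA, ERBB3 and BTC, with every neighbour separated beyond its counting interval. In normoxia ERBB2 preceded EGFR and HBEGF preceded EREG. There HBEGF stood at 1.12 times EREG (0.9998 to 1.25), a step that the counts did not separate, while in hypoxia EREG stood at 1.17 times HBEGF (1.04 to 1.32). The levels ran from 36.6 FPKM to 0.432 FPKM in hypoxia. ERRFI1 in hypoxia lay above 84.7% of the genes that passed the CPM minimum, while BTC lay above 5.30%.

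Counted over the 9 genes, 0 were called higher and 0 lower by a rule of a 2-fold ratio with an interval that excludes a ratio of 1, against 0.472% and 0.440% of all genes that passed the minimum. Of the 10739 genes with at least 100 counts in each library, to which all members but BTC belong, the rule called 3 higher and 1 lower. Of 15 HIF targets, described below, it called 1 higher. The rule thus called few well-counted genes, so 0 of 9 does not set these genes apart. The interval lay wholly above 0 for EGFR and ERRFI1, 2 of 9, against 15.0% of all genes. It lay wholly below 0 for HBEGF and ERBB2, 2 of 9, against 14.0%, and with the size factors of DESeq2 for HBEGF alone. The median log2 ratio of the 9 genes was -0.03, with 4 above 0 and 5 below, beside a median of 0.0032 over all genes. As a set the 9 genes therefore did not move one way.

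**Figure D3:**
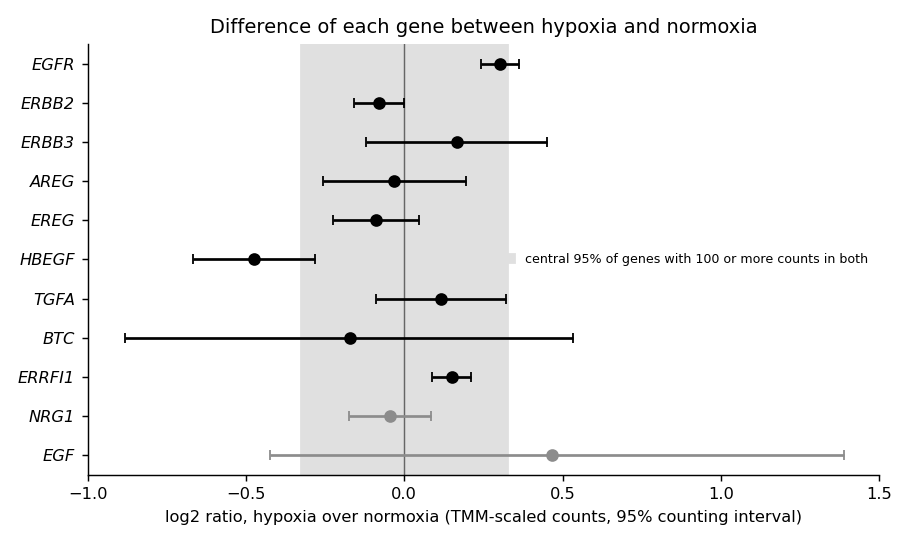
Log2 ratio of hypoxia over normoxia for the 9 genes (black) and for NRG1 and EGF (grey), with 95% counting intervals, 1 library per group. The grey band holds the central 95% of genes with at least 100 counts in each library (-0.33 to 0.33), and HBEGF at -0.48 lies outside it while EGFR at 0.30 lies just inside its upper edge. The central 95% of all genes that passed the CPM minimum, not drawn, ran from -0.51 to 0.51 and held both.

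A ratio of 2 genes within a library needs no scaling between libraries, so the 36 pairs of the 9 genes were compared in this way. For 13 pairs the interval of the difference in log2 ratio excluded 0. These intervals were not widened for the number of pairs. Pairs of other genes were not compared, so the count is not shown to be particular to these 9 genes. Of all single genes, 15.0% had an interval wholly above 0 and 14.0% wholly below. HBEGF, with the lowest ratio of the 9, took part in 7 of the 13 pairs, against each of the other genes but BTC. EGFR, with the highest ratio, took part in 5. The widest was EGFR minus HBEGF, at 0.78 (0.58 to 0.98), so the receptor and this ligand diverged 1.71-fold. EGFR also exceeded ERBB2 by 0.38 (0.28 to 0.48), AREG by 0.33 (0.10 to 0.57), EREG by 0.39 (0.24 to 0.54) and ERRFI1 by 0.15 (0.07 to 0.24). Without HBEGF and EGFR, 2 of 21 pairs remained, ERRFI1 against ERBB2 and ERRFI1 against EREG. EGFR minus TGFA was 0.19 (-0.03 to 0.40) and EGFR minus ERBB3 0.14 (-0.16 to 0.43), so these were not separated from EGFR.

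**Figure D4:**
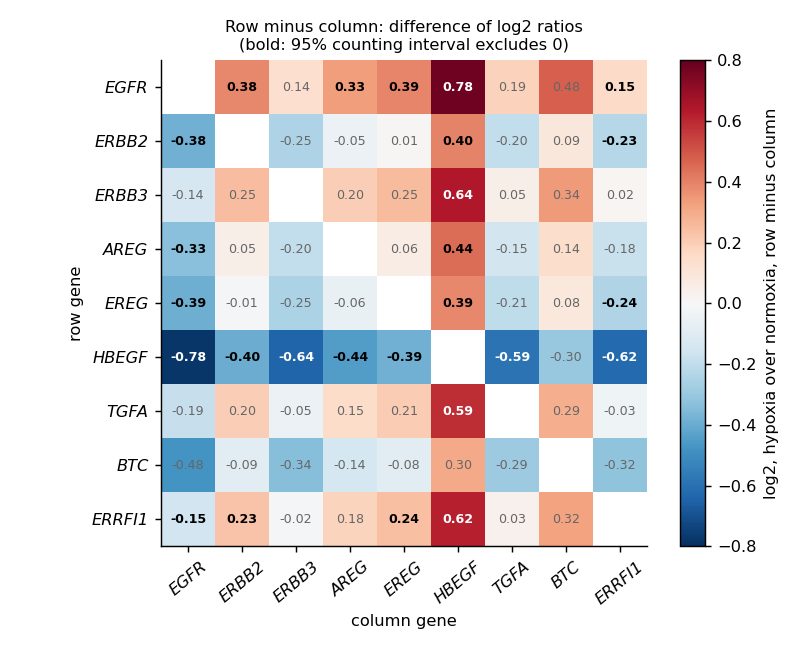
Difference in log2 ratio (hypoxia over normoxia) between the gene of the row and the gene of the column for the 9 genes, with red where the row gene is higher and bold type where the 95% counting interval excludes 0. The HBEGF row is below 0 against every other gene, from -0.78 against EGFR to -0.30 against BTC, where the interval includes 0.

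Genes around the receptors were followed through lists, whose counts are to be read beside the 15.0% of all genes with an interval wholly above 0 and the 14.0% wholly below. Of 11 genes of ligand shedding, 2 had an interval above 0 and 1 below, with a median of 0.01. The protease ADAM17, the main sheddase of AREG, HBEGF and TGFA, was at 0.12 (-0.0010 to 0.24) on counts of 1184 in hypoxia and 1021 in normoxia, and ADAM10 was at -0.01 (-0.11 to 0.08). Of the rhomboid-like proteins that carry ADAM17 to the surface, RHBDF2 was at 0.14 (-0.01 to 0.29) and RHBDF1 at -0.15 (-0.31 to 0.02). The 2 above 0, named after their values were seen, were the protease ADAM19 (149 counts in hypoxia, 87 in normoxia, 0.68, 0.29 to 1.08) and TIMP3, an inhibitor of ADAM17 (45 counts in hypoxia, 24 in normoxia, 0.81, 0.07 to 1.59), both with few reads.

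Of 20 receptor adaptors and proximal signalling genes, 4 had an interval above 0 and 3 below, with a median of 0.04. GAB1, a docking protein of EGFR, was highest at 0.46 (0.16 to 0.77), with counts of 228 in hypoxia and 155 in normoxia, and the kinase SRC was lowest at -0.27 (-0.41 to -0.14). Of 24 genes of receptor down-regulation and endocytosis, 5 lay above and 3 below, with a median of 0.05. STAM2, a sorting protein of endosomes, was highest at 0.19 (0.01 to 0.37), and SOCS4 lowest at -0.17 (-0.39 to 0.05). The ubiquitin ligase CBL, which marks EGFR for degradation, was at 0.17 (0.04 to 0.29), and LRIG1, a membrane protein that lowers EGFR, at 0.15 (0.03 to 0.28). CBL, LRIG1 and ADAM17 and ADAM10 above were named for their roles after their values were seen. Of 11 genes of the RAS and ERK core, 4 lay above and 3 below, from HRAS at -0.27 (-0.45 to -0.09) to the scaffold KSR1 at 0.27 (0.14 to 0.40), with a median of 0.08. None of these lists was tested against other genes.

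A further list held 10 ERK output genes, transcripts that are known to follow ERK activity. In it 9 genes were below 0, 6 had an interval wholly below 0 and 0 wholly above, with a median of -0.17 beside 0.0032 for all genes. The ephrin receptor EPHA2 was lowest, with counts of 1571 in hypoxia and 1957 in normoxia and a log2 ratio of -0.41 (-0.51 to -0.31). DUSP6, an ERK phosphatase, was highest at 0.05 (-0.16 to 0.26). Of all 12725 genes that passed the minimum, 6275 were below 0, and the interval lay wholly below 0 for 14.0% and wholly above for 15.0%. The list was not tested against them.

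The next list held receptors, and their ligands, that can stand in for EGFR when it is inhibited. Of the 12 that passed the minimum, 2 had an interval above 0 and 3 below, beside 15.0% and 14.0% of all genes, and the median was -0.11. Among those with at least 100 counts in each library the insulin receptor INSR was highest at 0.21 (0.07 to 0.35), and GAS6, the ligand of AXL, lowest at -0.48 (-0.75 to -0.21), with counts of 203 in hypoxia and 265 in normoxia. HGF and IGF1 were not in the table.

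The hypoxia label was checked on known targets of HIF. Of all 12725 genes that passed the minimum, 6450 were above 0 and 15.0% had an interval wholly above 0. All 15 listed targets were above 0, 14 had an interval above 0, and their median was 0.63. NDRG1 was highest at 1.32 (1.25 to 1.40) and ADM lowest at 0.26 (-0.10 to 0.62), while VEGFA was at 0.65 (0.58 to 0.73) and CA9 at 0.51 (0.38 to 0.65). EGFR at 0.30 and ERRFI1 at 0.15 lay below the median of these targets. The 12 reference genes ran from GUSB at -0.26 (-0.39 to -0.14) to YWHAZ at 0.19 (0.16 to 0.23). EGFR and HBEGF lay outside that range and the other 7 genes within it. Of the 12 reference genes 2 had an interval wholly above 0 and 4 wholly below, beside 15.0% and 14.0% of all genes. An interval that excludes 0 thus does not by itself mark a response to hypoxia.

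**Figure D5:**
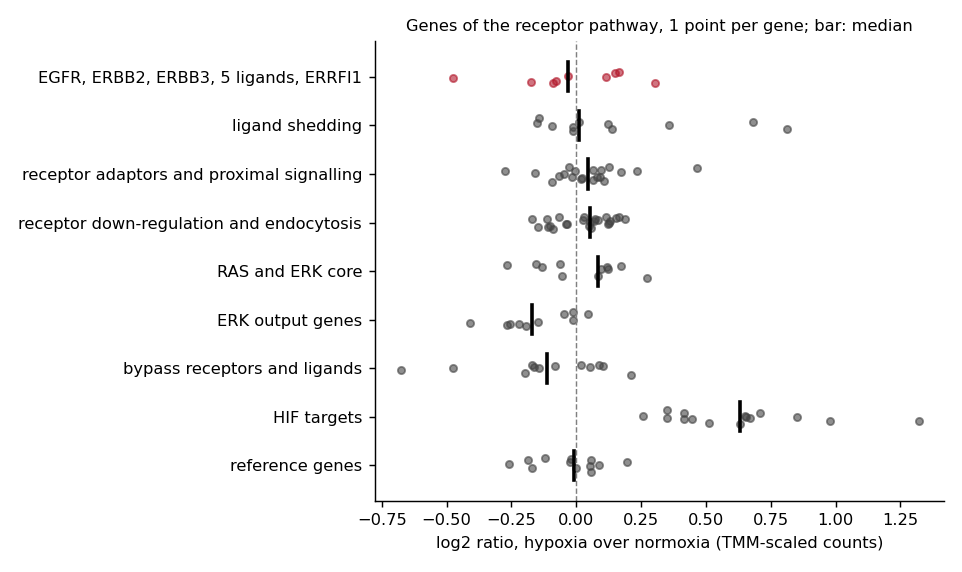
Log2 ratio of hypoxia over normoxia for each gene of a list that passed the CPM minimum (1 point per gene, vertical jitter without meaning), with the median as a bar, 1 library per group. HIF targets lie to the right (median 0.63), 9 of 10 ERK output genes lie left of 0 (median -0.17), and the 9 genes of the receptor family (red) spread from -0.48 to 0.30. Of all 12725 genes that passed the minimum, not drawn here, 6275 were below 0.

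Lung and epithelial markers fitted the label in part. All 10 were read in both libraries with a summed level of 4711 FPKM in hypoxia and 5188 FPKM in normoxia, and those with at least 100 counts in each library ran from KRT7 at -0.42 (-0.45 to -0.40) to the lung factor NKX2-1 at 0.12 (0.01 to 0.22), while the surfactant genes SFTPB (14 counts in each library) and SFTPC (2 in hypoxia, 4 in normoxia) were almost absent. Endothelial markers summed to 1.08 FPKM in hypoxia and 1.25 FPKM in normoxia over the 4 in the table, and the 6 fibroblast markers to 20.9 FPKM in hypoxia and 20.1 FPKM in normoxia, mostly COL1A1. Of these 6, the collagen COL3A1, named after its values were seen, was called higher by the 2-fold rule, with 60 counts in hypoxia and 25 in normoxia and a log2 ratio of 1.17 (0.47 to 1.91). COL1A2, another collagen, was counted 226 times in hypoxia and 271 times in normoxia, for a log2 ratio of -0.35 (-0.62 to -0.09), and the part of these genes in the results was not tested. Of the 4 leukocyte markers in the table, PTPRC, the defining one, had 2 counts in hypoxia and 0 in normoxia, and the sum of 139.7 FPKM in hypoxia and 143.6 FPKM in normoxia was mostly CD68, a lysosomal protein.

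Reads of some genes can be shared with overlapping genes, and the use of strand in counting is not stated in the sources at hand. In the RefSeq annotation EGFR-AS1 lies within EGFR, MIR4728 lies within ERBB2 and MIEN1 overlaps its end, and lncRNA genes overlap EREG and TGFA. Of these MIEN1 alone was in the table, counted 643 times in hypoxia and 622 times in normoxia, and the part of overlapping reads in the values was not tested.

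The miRNA tables held 6576 reads on known miRNAs in hypoxia and 32116 in normoxia. Of 13 miRNAs linked to genes of the EGFR family, 6 were among the 141 with values. Their mature sequences (RefSeq, GRCh38.p14) are shown with the seed, bases 2 to 8, in capitals, because miR-27a-3p and miR-27b-3p share 1 seed.
miR-7-5p: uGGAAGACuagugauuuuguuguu
miR-27a-3p: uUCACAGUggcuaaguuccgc
miR-27b-3p: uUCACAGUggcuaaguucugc
miR-125a-5p: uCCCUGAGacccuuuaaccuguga
miR-148a-3p: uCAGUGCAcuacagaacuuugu
miR-21-5p: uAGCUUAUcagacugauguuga
miR-7-5p, known to repress EGFR, was read 0 times in hypoxia and 47 times in normoxia, and was thus at least 4.27-fold lower with TMM against the floor of 3 reads in the hypoxia library. miR-27a-3p, reported to repress EGFR, was read 1 time in hypoxia and 141 times in normoxia, for a log2 ratio of -5.26 (-10.58 to -2.76), and miR-27b-3p was read 0 times in hypoxia and 65 times in normoxia, at least 5.90-fold lower. miR-21-5p, reported to rise with EGFR signalling in lung cancer, was read 37 times in hypoxia and 338 times in normoxia, for a log2 ratio of -1.31 (-1.85 to -0.82). These 4 were lower in hypoxia under each scaling used. How many of all 141 miRNAs were lower or at 0 in hypoxia was not counted, so the difference is not shown to be particular to these 4. The hypoxia library held only 6576 reads on known miRNAs against 32116 in normoxia, so a count of 0 or 1 there rests on few reads. Whether the yield or quality of that library bears on these differences was not tested.

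The other 2 turned with the scaling. miR-125a-5p, which targets ERBB2 and ERBB3, was read 75 times in hypoxia and 66 times in normoxia, for a log2 ratio of 2.06 (1.56 to 2.56) with TMM and of -0.11 by the authors' TPM. miR-148a-3p, reported to target ERRFI1, was read 316 times in hypoxia and 321 times in normoxia, for a log2 ratio of 1.85 (1.63 to 2.08) with TMM and of -0.32 by TPM. Whether any of these miRNAs bears on the receptor transcripts was not tested.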

How the data were processed

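RNA-seq and small RNA-seq were each run on 1 hypoxia and 1 normoxia library of H1975 cells. Per the labels' protocols, RNA-seq libraries came from a stranded mRNA kit. Per the submitters' processing notes the tools were Bowtie, Cufflinks, HISAT2, HTSeq and Trimmomatic, on GRCh38, with no versions or roles given.

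The values used were the counts per gene and per miRNA that the authors deposited. The FPKM that the authors deposited carry a gene length and the library total, since in each gene their log2 ratio lay -0.10 from that of unscaled counts. The TPM that the authors deposited for miRNAs are counts times 1 constant per library. For miR-125a-5p, 75 reads gave 6.86 TPM in hypoxia and 66 reads gave 7.42 TPM in normoxia. The constant was thus smaller in hypoxia, although fewer reads fell on known miRNAs there, so these TPM were not scaled to the sum of those reads.

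Counts were scaled with TMM (edgeR 4.0.16, R 4.3.3). Ratios were given with exact conditional (Clopper-Pearson) 95% intervals, differences between genes with exact conditional odds ratio intervals, levels with Poisson intervals and shares with delta-method intervals (Python 3.11.15, numpy 2.4.6, pandas 2.3.3, scipy 1.17.1, matplotlib 3.10.9). At 1 read the scaled CPM was 0.0530 in hypoxia and 0.0565 in normoxia. The interval procedure was tested only on simulated Poisson counts, the model it assumes. Such counts hold no PCR copies and no spread between cultures, so the test does not cover these.

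The 9 genes and the lists were chosen with earlier results of these data known. Named were the 9 genes, the other ERBB ligands, the highest and lowest gene of each list among those with at least 100 counts in each library, VEGFA, NDRG1, CA9 and the listed miRNAs. PDGFRB and CD14, which the rule also reached among markers, are not described. Alternatives were scaling by DESeq2 1.42.0, by upper quartile or by total counts, log2 of FPKM plus 1 or plus 0.1, a CPM minimum of 5 or none, an interval wholly beyond 1.5, shares of counts, and TPM.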

Additional observations from a re-analysis of the deposited data

How the results depend on the processing

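The log2 ratio of each of the 9 genes stayed within its counting interval under all 5 alternatives in scaling or pseudocount (45 values). The medians of the lists were recomputed under these and both CPM settings. The median of the 9 genes was 0.04 in place of -0.03 with a CPM minimum of 5, where BTC was left out. The median of ligand shedding, 0.01, was -0.00032 by total counts and below 0 on both FPKM scales and with a CPM minimum of 5, and those of the other lists kept their sign. No member was called by the 2-fold rule under any of the alternatives. The number of members with an interval below 0 was 1 in place of 2 with DESeq2 size factors, where ERBB2 dropped out, a comparison added after seeing the data. The number of all genes called higher (60) was 6 on log2(FPKM + 1), 30 on log2(FPKM + 0.1), 107 without a filter, 7 with a CPM minimum of 5 and 25 by an interval beyond 1.5. The number called lower (56) was 1, 20, 104, 1 and 13 in the same order.

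Shares rest on the gene length. By counts without length EGFR made up 65.5% of receptors in hypoxia and 59.6% in normoxia, ERBB2 31.8% in hypoxia and 37.7% in normoxia, and ERBB3 2.77% in both. Among ligands AREG made up 10.7% in hypoxia and 10.2% in normoxia, EREG 28.9% in hypoxia and 28.7% in normoxia, HBEGF 12.6% in hypoxia and 16.3% in normoxia, TGFA 13.5% in hypoxia and 11.7% in normoxia, and NRG1 32.0% in hypoxia and 30.9% in normoxia. EGFR thus kept a higher and HBEGF a lower share in hypoxia, while the order of EGFR and ERBB2 in normoxia turned.

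For miRNAs, TPM gave log2 ratios of -0.11 for miR-125a-5p and -0.32 for miR-148a-3p, both of opposite sign to TMM, and of -3.49 for miR-21-5p. miR-7-5p was at least 19.3-fold and miR-27b-3p at least 26.7-fold lower. With total miRNA counts, added after seeing the data, the values were 2.27 for miR-148a-3p, at least 3.21-fold for miR-7-5p and at least 4.44-fold for miR-27b-3p. No paired analysis was possible because each group had 1 library. Of the 9 genes depth limits BTC most, and of the other ligands NRG2, NRG3, NRG4 and EPGN.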
